A study of Homo sapiens with 4 samples.

Results

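The cytosolic ribosomal protein genes were examined in the peak lists of an iRIP-seq experiment on FSCN1 (fascin), an actin-bundling protein. The genes were taken by symbol, as protein-coding genes named RPL or RPS with a number and an optional A, X or L, together with RPLP0, RPLP1, RPLP2 and RPSA. This gave 81 of 20046 protein-coding genes of GENCODE 44, 49 for the large and 32 for the small ribosomal subunit. Mitochondrial ribosomal protein genes, pseudogenes and the RPS6K kinases were left out. The study immunoprecipitated FSCN1 from ultraviolet-crosslinked A549 cells, an established human lung adenocarcinoma line, and sequenced the RNA that came down with it in 2 IP replicates beside 2 input samples. The sample labels give a FLAG antibody where the methods give one against FSCN1, and 1 of the inputs is labelled as a plasmid input, so it is not certain which form of the protein was precipitated. Each IP replicate had 1 list of peaks, with 181 peaks in replicate 1 and 238 in replicate 2. The inputs were not analysed here, so no value below is an enrichment over input. By the methods, the authors used the inputs as controls and kept peaks above a set abundance ratio over input. Whether the deposited lists had passed that screen was not checked here. The study describes the replicates as biological, and how the cultures were separated is not given in the sources used here. The depth of the libraries cannot be read from the lists. Values are tags, the mean number of reads per 50-bp bin as the authors deposited it, and are not scaled between the libraries.

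Ribosomal proteins surround the ribosomal RNA of the large and small subunits and are made in nearly equal amounts by some of the most abundant mRNAs of a growing cell. Their mRNAs are short, begin with a tract of pyrimidines (the 5′ TOP motif) through which their translation responds to growth signals, and are spliced from genes with several small exons. The introns of many of these genes carry snoRNAs, and reverse-transcribed copies of the spliced mRNAs, the processed pseudogenes, lie scattered over the genome.

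The peaks of these genes lay on 36 distinct 50-bp positions, 1 of them extended to 100 bp. All 36 touched a coding exon, and most held an exon edge, so the sequence of a peak was usually part exon and part intron. The examples below were read from GRCh38 along the strand of the gene, 5′ to 3′, with exon bases of the canonical mRNA in capitals and intron bases in lower case. The first pair are the positions with a peak in both replicates, in RPLP0 (exon 3 of 8) and RPL3 (exon 2 of 10), both read on the minus strand.
RPLP0 chr12:120199301-120199350: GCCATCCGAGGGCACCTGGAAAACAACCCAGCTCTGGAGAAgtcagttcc
RPL3 chr22:39318351-39318400: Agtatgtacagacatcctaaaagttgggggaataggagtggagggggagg
The next are from other genes on the minus strand, where the exon base at the edge was the last of its exon.
RPS14 chr5:150446801-150446850: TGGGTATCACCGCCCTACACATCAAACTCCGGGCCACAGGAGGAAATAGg
RPL18 chr19:48615851-48615900: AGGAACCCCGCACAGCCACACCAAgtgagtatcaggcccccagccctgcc
RPL4 chr15:66500251-66500300: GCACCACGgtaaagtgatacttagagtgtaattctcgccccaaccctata
RPS2 chr16:1962451-1962500: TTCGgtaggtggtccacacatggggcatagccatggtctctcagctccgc
The last are from genes on the plus strand. Here the edge was most often the first base of an exon, and RPS19 shows a position wholly inside exon 4 of 6.
RPL31 chr2:101004151-101004200: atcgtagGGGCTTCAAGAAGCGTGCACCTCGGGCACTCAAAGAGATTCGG
RPS27 chr1:153991551-153991600: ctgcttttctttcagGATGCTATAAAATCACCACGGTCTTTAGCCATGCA
RPL13 chr16:89562301-89562350: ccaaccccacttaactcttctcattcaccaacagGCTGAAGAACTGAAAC
RPL37A chr2:216501301-216501350: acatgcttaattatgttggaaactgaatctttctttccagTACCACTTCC
RPS19 chr19:41869151-41869200: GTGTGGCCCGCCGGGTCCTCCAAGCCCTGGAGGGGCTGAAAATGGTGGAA
The RPL3 position held 1 exon base and 49 intron bases. The RPS2 position held 4 exon bases and reached 16 bp into SNORA10, a snoRNA in the adjoining intron.

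Ribosomal protein genes with a peak numbered 9 of 81 in replicate 1 (11.1%, Wilson 95% interval 5.96 to 19.8), where 0.219% of all protein-coding genes had one. In replicate 2 they numbered 12 (14.8%, 8.68 to 24.1), against 0.279% of protein-coding genes. Over either replicate 17 ribosomal protein genes had a peak (21.0%, 13.5 to 31.1), against 0.424%, and 4 had peaks in both (4.94%, 1.94 to 12), against 0.0748%. The 4 genes in both lists became 1 with gene-strand peaks only and 0 with peaks above the median tags of each list, and the 17 genes became 5 in the latter setting. They made up 17 of the 85 protein-coding genes with a peak in either list and 4 of the 15 with a peak in both. A peak list leaves expression unmeasured, and the level of these mRNAs in the cells was not tested as a part of these shares. By subunit, 11 of 49 large-subunit genes (22.4%, 13.0 to 35.9) and 6 of 32 small-subunit genes (18.8%, 8.89 to 35.3) had a peak in either replicate, and the intervals overlapped. The order of the subunits turned between the replicates, with 4 large-subunit and 5 small-subunit genes in replicate 1 and 9 and 3 in replicate 2.

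All tags of these genes lay between 6 and 12. Their 15 peaks in replicate 1 had a median of 7 tags and a range of 7 to 10, and the 36 peaks of replicate 2 a median of 7 and a range of 6 to 12. The lowest value in each list was 7 and 6 tags, so that 13 of 15 peaks (86.7%, 62.1 to 96.3) and 16 of 36 (44.4%, 29.5 to 60.4) sat at the bottom of their list. Peaks of other protein-coding genes had medians of 8 and 6 tags, so in replicate 2 the ribosomal protein peaks were not lower at the median. Other genes reached 61 tags in replicate 1 and 161 in replicate 2. Without bins that hold a small RNA gene, their highest values were 61 and 45.5. Of their peaks, 37.5% (24 of 64) and 51.9% (41 of 79) were at the lowest value. Summed over bins, the ribosomal protein genes held 109 of 2893 listed tags in replicate 1 (3.77%) and 263 of 5374 in replicate 2 (4.89%), less than their shares of 8.29% and 15.1% of the peaks. Within replicate 2, exact Poisson 95% intervals were 2.20 to 13.1 for 6 tags and 6.20 to 21.0 for 12 tags. These cover counting error only, and those of the highest and the commonest value in that replicate overlapped.

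**Figure D1:**
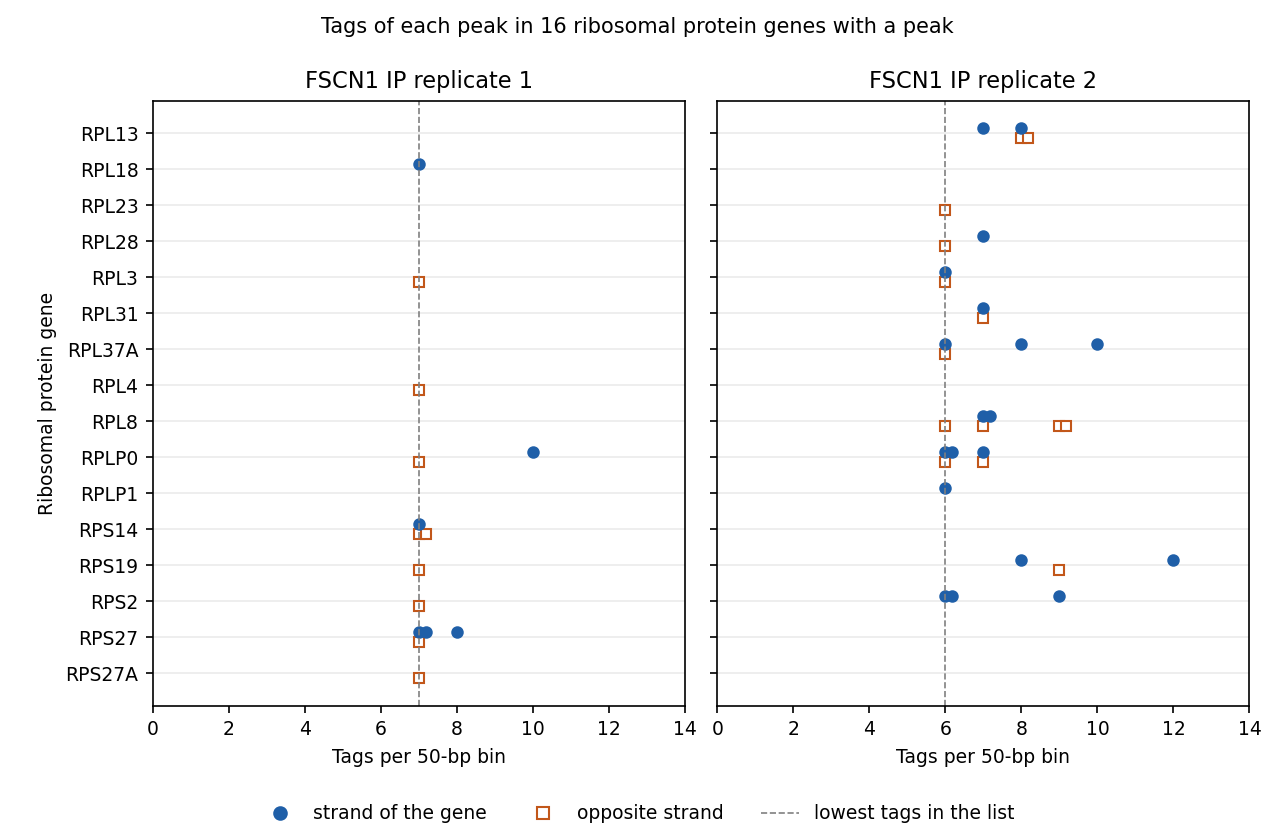
Tags per 50-bp bin (x axis) of each peak in 16 of the 17 ribosomal protein genes with a peak (y axis), for each FSCN1 IP replicate; filled circles are peaks on the strand of the gene, open squares peaks on the opposite strand, the dashed line is the lowest value of the list, and points of equal value are set side by side. In replicate 1 only RPLP0 with 10 and RPS27 with 8 tags rise above the line at 7, and in replicate 2 the highest point is RPS19 with 12.

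Among the large-subunit genes, RPLP0, which anchors the stalk that receives elongation factors, had the most peaks over both lists together. It had 2 in replicate 1 and 5 in replicate 2, where RPL8 had 6. The exon 3 position of RPLP0, printed above, had 10 tags on the gene strand in replicate 1 (4.80 to 18.4). In replicate 2 it had 7 tags on the gene strand and 7 opposite to the gene. A further RPLP0 position was listed in replicate 1 alone, with 7 tags opposite to the gene at the end of exon 4. Replicate 2 added positions in exons 6 and 7, with 6 tags per peak. RPLP0 was thus the only member with more than 1 position in the pair of lists and a position at the same place in both. RPLP1, its partner in the stalk, had 1 peak of 6 tags in replicate 2, and RPLP2 had none.

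RPL3, which reaches towards the peptidyl transferase centre, was listed at its single position with 7 tags opposite to the gene in replicate 1, and with 6 tags on each strand in replicate 2. RPL8, another protein near that centre, had no peak in replicate 1 and 6 peaks at 4 positions in replicate 2. These RPL8 peaks had 6 to 9 tags and covered exons 2, 3, 4 and 5 of its 5 exons, with 4 of the 6 opposite to the gene. RPL37A, a zinc-binding protein, likewise had peaks in replicate 2 alone, with 6 tags in exon 2, 8 at the start of exon 3 and 10 at the start of exon 4 on the gene strand, and 6 opposite to the gene in exon 3. RPL8 and RPL37A therefore carried 10 of the 36 peaks of replicate 2 between them.

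Of the other large-subunit genes, RPL13 had 7 and 8 tags on the gene strand and 8 tags opposite to it at each of 2 positions in replicate 2. RPL31, which sits by the exit of the peptide tunnel, had 7 tags on each strand there, and RPL28 had 6 and 7 tags at neighbouring exon edges. RPL23 had 1 peak of 6 tags, opposite to the gene. RPL18 and RPL4, a protein that lines the peptide tunnel, had 1 peak of 7 tags each, in replicate 1 alone. None of these genes had peaks in both lists.

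In the small subunit, RPS19, the gene most often mutated in Diamond-Blackfan anaemia, held the highest value of all these genes. This was a peak of 12 tags on the gene strand in replicate 2 (6.20 to 21.0), over the last 24 coding bases and 26 bases of the 3′UTR. Its exon 4 position had 8 tags on the gene strand and 9 opposite to it in the same replicate. In replicate 1, RPS19 had 7 tags opposite to the gene in exon 2, 8300 bp from the nearest position of replicate 2, so its peaks in the lists did not meet. RPS2, which lies at the entry of the mRNA channel, had 7 tags opposite to the gene in exon 3 in replicate 1 and 6, 6 and 9 tags on the gene strand in replicate 2, the last at SNORA10. The nearest RPS2 positions of the replicates were 50 bp apart.

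The other small-subunit genes named here were listed in 1 replicate each. RPS27, a zinc-finger protein, had 4 peaks of 7 or 8 tags over exons 1, 2 and 3 in replicate 1, and its first was the only position in a first exon, with 35 bases of 5′UTR and the first 4 coding bases. RPS14, the gene whose loss marks the 5q- syndrome, had 7 tags on both strands at the end of exon 3 and 7 opposite to the gene at the end of exon 4, also in replicate 1. RPS27A, made as a fusion with ubiquitin, had 1 peak of 7 tags opposite to the gene. As the plot of tags by gene shows, a gene listed in 1 replicate alone was usually at or next to the lowest value of that list, and its tags in the other replicate are not given by a peak list.

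The replicates shared few places. With 1 shared base on the same strand as the criterion, 2 of the 15 peaks in replicate 1 met one of replicate 2 (13.3%, 3.74 to 37.9), and 2 of the 36 in replicate 2 met one of replicate 1 (5.56%, 1.54 to 18.1). For other protein-coding genes these shares were 9.38% (6 of 64) and 7.59% (6 of 79), and the intervals overlapped. In RPLP0 the shared position was on the gene strand in both lists, whereas in RPL3 it was the peak opposite to the gene that recurred. With either strand allowed, 4 peaks of replicate 2 overlapped, all at these 2 positions.

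Most positions lay over the edge of an exon. Of the 36 positions, 29 (80.6%, 65.0 to 90.2) held the edge of an exon of the canonical mRNA, 12 of 13 in replicate 1 (92.3%, 66.7 to 98.6) and 19 of 25 in replicate 2 (76%, 56.6 to 88.5). In the same 17 genes, 670 of the 4197 bins of the 50-bp grid (16%) touched an exon, 298 (7.10%) touched coding sequence, and 158 of those 298 (53.0%, 47.4 to 58.6) held an edge. Among positions of other protein-coding genes that also touched coding sequence, 36 of 57 held an edge (63.2%, 50.2 to 74.5), 11 of 18 in replicate 1 (61.1%, 38.6 to 79.7) and 26 of 40 in replicate 2 (65%, 49.5 to 77.9). The intervals of the ribosomal protein genes overlapped those of the other genes in each replicate, and that of the coding grid in replicate 2 but not in replicate 1. In 12 of the 29 positions the intron took more bases than the exon, and 7 positions had at most 10 exon bases, among them RPL3 with 1, RPS2 with 2 and 4 and RPLP1 with 4.

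The edge was nearly always the one at the lower genome coordinate, whichever way the gene ran. This held for 27 of the 29 positions (93.1%, 78.0 to 98.1), against 80 of the 158 coding grid bins with an edge (50.6%, 42.9 to 58.3). On the 14 positions of minus-strand genes it was the end of an exon before an intron in all 14. In plus-strand genes, 12 of 15 positions lay at the start of an exon after an intron and 1 at the start of the RPS27 mRNA. The exceptions were RPS19 exon 2 and RPL28 exon 4, plus-strand genes with the bin over the end of the exon. A side of the exon that is a 3′ splice site in one gene and a 5′ splice site in another is thus what the positions had in common. The side was the same for positions with a gene-strand peak (18 of 18) and positions with a peak opposite to the gene (19 of 21, 90.5%). The first count leaves out the RPL37A gene-strand peak in exon 3, which covered only part of its merged position. The side was also the same in replicate 1 (11 of 12) and replicate 2 (18 of 19). It was not particular to ribosomal protein genes, since 35 of 36 positions with 1 edge in other protein-coding genes (97.2%, 85.8 to 99.5) also had the edge at the lower coordinate. How the authors assigned a read that spans an intron to a bin is not given in the sources used here, and its part in this pattern was not tested.

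**Figure D2:**
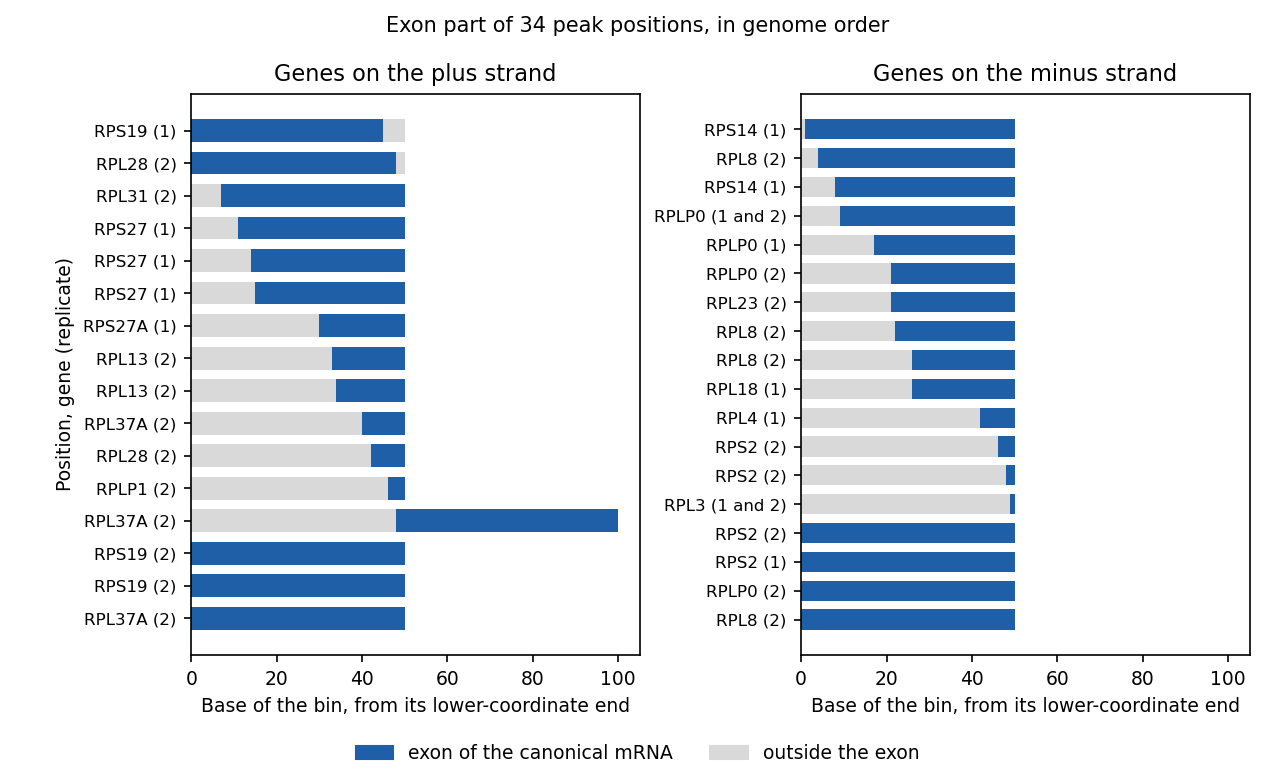
Bases of 34 of the 36 positions, numbered from the lower-coordinate end of the bin (x axis), for genes on the plus strand (left) and on the minus strand (right); blue is exon of the canonical mRNA, grey is outside it, and the label gives the gene and the replicate with the peak. In 25 positions the grey part is on the left and the blue on the right on both strands, RPS19 and RPL28 at the top left are the exceptions, and 7 bars are blue throughout.

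The other 7 positions lay wholly inside an exon. They were in RPL8, RPL37A, RPLP0, RPS19 with 2 and RPS2 with 2. The RPS19 position of 12 tags began at the first base of its exon. The rest began 25 to 120 bases from the lower-coordinate end of exons of 90 to 194 bases. Counting a peak as exonic when at least 50% of its bin was exon, 11 of 15 peaks (73.3%, 48.0 to 89.1) and 22 of 36 (61.1%, 44.9 to 75.2) were in an exon, against 57.8% (37 of 64, 45.6 to 69.1) and 53.2% (42 of 79, 42.3 to 63.8) in other protein-coding genes, with intervals that overlapped in each replicate. By the authors' own feature class, in which peaks opposite to the gene are antisense, the share in replicate 1 was 40%. Counting any peak that touched an exon, the shares were 15 of 15 (100%, 79.6 to 100) and 36 of 36 (100%, 90.4 to 100). Other protein-coding genes had 71.9% (59.9 to 81.4) and 77.2% (66.8 to 85.1), with intervals that overlapped in replicate 1 and not in replicate 2. A bin listed on both strands counts once per strand in these shares, which narrows the intervals. Counted once per position, replicate 2 had 25 of 25 against 44 of 55, and no difference is drawn from these shares.

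Peaks lay on both strands of these genes. On the strand of the gene were 6 of 15 peaks in replicate 1 (40%, 19.8 to 64.3) and 20 of 36 in replicate 2 (55.6%, 39.6 to 70.5). Other protein-coding genes had 50.0% and 58.2%. By position, and counting only peaks that the lists assign to the gene, replicate 1 had 2 with peaks on both strands, 4 with a peak on the gene strand alone and 7 with one on the opposite strand alone, and replicate 2 had 11, 9 and 5. Of those 9, the RPS2 position at SNORA10 and the RPL28 position in exon 5 also had a peak on the opposite strand that is listed under another gene. In 14 of the 17 genes at least 1 peak was on the gene strand, and RPL4, RPL23 and RPS27A had peaks on the opposite strand alone. The same bin was also listed on the complementary strand for 4 of 15 peaks (26.7%, 10.9 to 52.0) in replicate 1 and 22 of 36 (61.1%, 44.9 to 75.2) in replicate 2. Other protein-coding genes had 51 of 64 (79.7%, 68.3 to 87.7) in replicate 1, with intervals that did not overlap, and 65.8% in replicate 2. A bin listed on both strands counts once per strand in these shares, which narrows the intervals, and no difference is drawn from them. In replicate 1, 13 of the 15 ribosomal protein peaks were at the lowest listed value, and the part of that limit in the count was not tested. The methods name the KAPA RNA HyperPrep Kit and paired-end sequencing for these libraries. They do not state whether the strand of the RNA was kept, and the part of the library type in the strand counts was not tested.

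Along the message, the positions were spread over the whole coding sequence. Measured from the start codon, the centre of the coding bases lay between 0.794% (RPS27) and 97.2% (RPS19) of the coding sequence, with a median of 59.0%. From start to stop, 11 positions were below 25% of the coding sequence, 5 between 25% and 50%, 9 between 50% and 75%, and 11 above 75%. The median was 31.7% over 13 positions in replicate 1 and 63.2% over 25 in replicate 2. UTR bases were in 3 positions, those of RPS27, RPL8 and RPS19, and 6 positions were in a last exon. Relative to the full mRNA, exonic positions had a median place of 18.9% and 24.6%, beside 22.7% and 24.7% in other protein-coding genes. Several canonical mRNAs carry a long 3′UTR, such as that of RPL28, with 4209 nt for a coding sequence of 411 nt. The part of 3′UTR length in the median place was not tested.

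**Figure D3:**
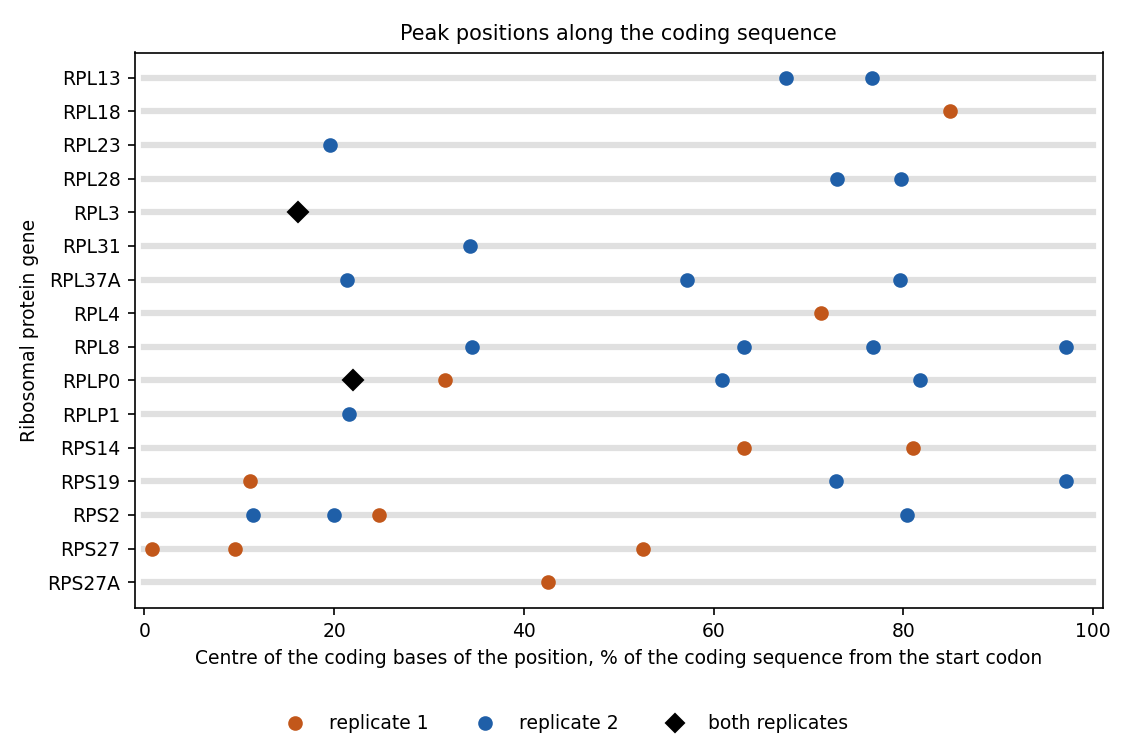
Centre of the coding bases of each position as a percent of the coding sequence from the start codon (x axis) in 16 of the 17 genes with a peak (y axis); orange circles are positions of replicate 1, blue circles of replicate 2 and black diamonds of both. Positions run from 0.794% in RPS27 to 97.2% in RPS19, and the diamonds mark RPL3 at 16.2% and RPLP0 at 22%.

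The GC content of the bins was set beside that of other genes and of the mRNA itself. Over positions, the median GC content was 52% in replicate 1 and 56% in replicate 2, against 62% and 64% in other protein-coding genes. Exonic positions exceeded the GC content of their own mRNA by a median of 3.14 percentage points in replicate 1 (n = 9, from -7.58 to 13.1) and 1.61 in replicate 2 (n = 16, from -14.3 to 18.4). In other protein-coding genes the medians were 7.74 (n = 22) and 8.12 (n = 29). Of the ribosomal protein positions, 5 of 9 and 9 of 16 were above their mRNA, against 20 of 22 and 22 of 29. The sign in replicate 2 turned with peaks above the median tags of the list, where the median was -7.55 points over 4 positions, and the value in replicate 1 was 6.09 points against the whole gene body.

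Near-identical copies bear on where a read of these genes can be placed. Searched against GRCh38 at 95% identity over at least 90% of the query, the spliced mRNA over 150 nt around a position had another genomic match in 27 of 36 positions, with up to 21 in RPS2. The 50-bp bins themselves, most of which include intron, had another match in 11 of 36. Of these, 2 lay in RPS2 exons, with 15 and 11 further matches, and 3 were the RPS19 positions, with 3 to 5. The other bins with a match were in RPLP0 with 4, RPL8 with 3 and 2, RPL37A with 2, RPL28 with 1 and the SNORA10 position of RPS2 with 1. In the 150-nt mRNA windows the RPS27 positions had 7 to 11 matches, and those of RPS19 had 0 or 1. Only uniquely aligned reads were kept according to the methods, and how far reads of the copies contributed to these peaks was not tested. The complete coding sequence had no other match in 5 of the 17 genes with a peak (29.4%) and in 16 of the 64 without (25.0%), with a median of 1 and 2 other matches.

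Similarity to structural RNAs was confined to 2 of the 36 positions, in a search of each bin with 50 bp on both sides for alignments of at least 40 bp at 85% identity. In RPS2 the searched stretch shared 66 bp with SNORA10, and in RPL23 it shared 44 bp with SNORA21, a snoRNA in an intron of the gene that lies beside the bin and not in it. The RPS2 position had 9 tags on the gene strand, and 8 tags on the opposite strand were listed under SNORA10. Without this position, RPS2 kept 2 peaks in replicate 2. Hosting a snoRNA did not set apart the genes with a peak, with 6 of 17 (35.3%, 17.3 to 58.7) against 22 of 64 without (34.4%, 23.9 to 46.6).

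Some peaks over ribosomal protein genes were given to another gene in the lists. In replicate 2 these included the SNORA10 peak over RPS2 and 7 tags under MIR6805 over the exon 5 edge of RPL28, each the opposite-strand partner of a listed peak.

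No peak was listed for the other 64 genes. In the large subunit these included RPL10, RPL10A, RPL10L, RPL11, RPL12, RPL13A, RPL14, RPL15, RPL17, RPL19, RPL21, RPL22, RPL23A, RPL24, RPL26, RPL27, RPL27A, RPL29, RPL30, RPL32, RPL34, RPL35, RPL35A, RPL36, RPL36A, RPL37, RPL38, RPL39, RPL39L, RPL3L, RPL41, RPL5, RPL6, RPL7, RPL7A, RPL9 and RPLP2. In the small subunit they included RPS10, RPS12, RPS13, RPS15, RPS15A, RPS16, RPS18, RPS20, RPS21, RPS23, RPS24, RPS25, RPS26, RPS27L, RPS28, RPS29, RPS3, RPS3A, RPS4X, RPS6, RPS7, RPS9 and RPSA. They include RPL5 and RPL11, which bind MDM2, and RPS6, the substrate of S6 kinase.

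Genes with a peak had a median mRNA length of 1291 nt (352 to 4209) and those without 739 nt (295 to 7573), and the ranges overlapped. Their mRNA GC content was 53.0% (40.1 to 63.6) against 47.4% (40.3 to 61.3). The median number of annotated pseudogenes was 6 (2 to 62) against 15 (0 to 133). Median gene length was 4537 and 5548 bp, and the median number of exons was 5 in both. Since genes were not replicates, these are descriptions without a test. The 17 genes lay on 10 chromosomes. On chromosome 19, 4 of 12 ribosomal protein genes had a peak, beside 17 of 81 (21.0%) over all chromosomes. Other chromosomes, such as chromosome 2, had a higher share.

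**Figure D4:**
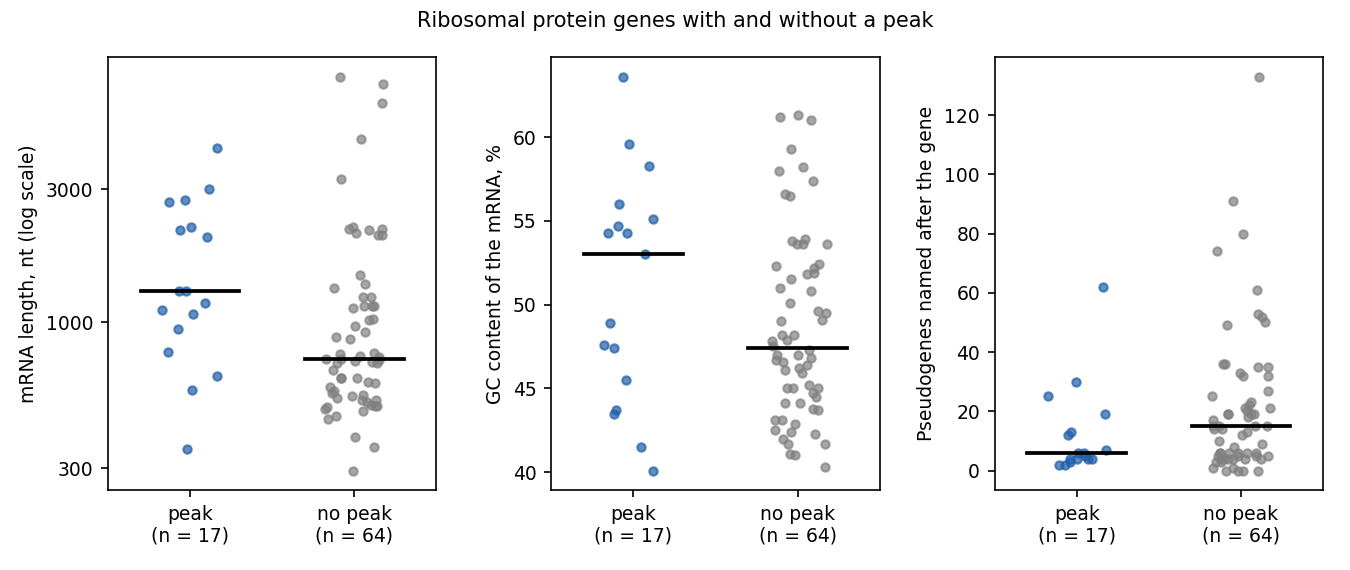
Length (left, log scale) and GC content (middle) of the canonical mRNA and number of pseudogenes named after the gene (right) for the 17 ribosomal protein genes listed in at least 1 replicate and the 64 without a peak; each point is a gene and the bar is the median. The medians are 1291 and 739 nt, 53.0% and 47.4%, and 6 and 15 pseudogenes, and the points of the groups overlap in each panel.

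Related gene groups were counted in the same lists. None of 78 mitochondrial ribosomal protein genes had a peak in either replicate (0%, upper bound of the interval 4.69), while the interval of the cytosolic genes began at 13.5%. Among 24 genes for translation factors and other TOP mRNAs, 3 had a peak (12.5%, 4.34 to 31.0), an interval that overlaps that of the ribosomal protein genes. These were EEF1D, a subunit of the exchange factor of EEF1A1, with 7 tags in replicate 1, and the elongation factors EEF1A1 and EEF2. In replicate 2, EEF1A1 had 8 tags and EEF2 had 4 peaks of 6 tags. The single peaks of EEF1D and EEF1A1 were opposite to the gene, as was that of KRT8, named below. EEF2 had peaks on both strands. Of 7 ribosomal protein genes whose symbols the rule does not cover, which include FAU and RPL22L1, none had a peak (upper bound 35.4%). Of 7 epithelial and A549-typical genes, KRT8 and AKR1B10 had peaks, in replicate 2 (28.6%, 8.22 to 64.1), an interval that overlaps that of the ribosomal protein genes, beside 0.424% of all protein-coding genes with a peak in either list.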

How the data were processed

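Peak lists of the 2 FSCN1 IP replicates were used. The methods state alignment by the authors with HISAT2 (build GRCh38), restriction to uniquely placed reads, removal of duplicates and 2 peak callers, Piranha and ABLIRC. Which caller made the lists is not given in the sources used here. The deposited tags are a signal, the mean number of reads per 50-bp bin, unscaled, and the p-value of each peak is the authors' and was not used. Library depth is not given by the lists. Starts are counted from 1. Gene identifiers were matched to GENCODE 44, and all 121 were found.

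Each peak was placed on the Ensembl canonical mRNA of its gene. This placement was tested on simulated data for the 81 genes and returned 423 of 423 simulated bins. Peaks of either strand that overlapped were merged into positions. Intervals are Wilson for shares and exact Poisson for tags, at 95%. With 1 condition, no groups were compared. Named genes are the members with a peak, and the others are listed, apart from a few genes that are counted in the totals but not reported here by name. Members and lists were chosen with earlier results of these data known, and the exon side was examined after the peaks had been seen. Alternatives were a tag minimum, strand, transcript, assignment, overlap and GC reference. Tools were Python 3.11.15, pandas 2.3.3, scipy 1.17.1, pysam 0.24.0, blastn 2.17.0 and matplotlib 3.10.9. Sequence and copies were read from the GRCh38 primary chromosomes.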

Additional observations from a re-analysis of the deposited data

How the results depend on the processing

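Of 89 recomputed values, 64 stayed within the limits set for their kind, 24 moved beyond them and 1 changed sign. Some of the 64 could not change. Leaving out the SNORA10 peak or adding peaks listed under other genes alters nothing in replicate 1, which has none of either. Counting each position once cannot alter a count of genes. The tally is therefore no measure of stability. The limits were 1.5 times the reported value for counts, its Wilson interval for shares, and 1 SD of the 2 replicates for medians of place and GC. With peaks above the median tags of each list, ribosomal protein genes with a peak fell to 5 over either replicate, 1 in replicate 1, 4 in replicate 2 and 0 in both. That setting left 1 peak in replicate 1, which was on the gene strand (100%) and in an exon (100%) at 25.9% of the mRNA with GC 4.97 points above it. In replicate 2 it gave a median place of 51.5% and GC of -7.55 points over 4 positions. Overlapping peaks were then 1 and 0, and 100% of 4 edges were at the lower coordinate. With gene-strand peaks only, 4 genes had a peak in replicate 1 and 1 in both, and 100% of edges were at the lower coordinate. The authors' own feature class put 40% of peaks of replicate 1 in exons. The longest coding transcript gave median places of 24.8% and 35.7%, and the coding sequence, chosen after seeing the data, 24.7% and 59.0% over exonic positions. The whole gene body as reference gave GC 6.09 points higher in replicate 1. Overlap on either strand gave 4 peaks in replicate 2. Leaving out a replicate gave 9 to 12 genes with a peak, 40% to 55.6% of peaks on the gene strand, places of 18.9% to 24.6%, GC differences of 1.61 to 3.14 points, and 91.7% to 94.7% of edges at the lower coordinate. The alternatives for the edges were all chosen after seeing the data, and with 1 position per gene the share was 88.2%. Except where the alternative itself leaves fewer peaks, the cause of a change was not tested. No paired analysis was possible because the inputs that share replicate numbers with the IPs were not analysed here. Most ribosomal protein peaks were within a few tags of the lowest listed value. Tags below that value are not given by a peak list, and the part of this limit in the genes missing from a list was not tested.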
